A study of Homo sapiens with 24 samples.

Results

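The 9 genes described here are targets of the transcription factor p53: MDM2, CDKN1A, BBC3, FAS, TP53I3, SESN1, ZMAT3, RRM2B and TP53INP1. They were chosen by symbol, as the rows of the count table whose Ensembl gene identifier maps to one of these names, and they are 9 of the 60617 genes in the table. All 9 passed the filter on low counts, which left 15476 genes to test. The RNA came from 686Tu cells, an established squamous carcinoma line from the head and neck that is also called MDA686TU. There were 4 groups of 6 libraries: cells without treatment (NT), cells given 40 µM EGCG, a green tea catechin, cells given 15 µM resveratrol, a plant stilbene, and cells given both agents at these doses (Combination), all for 24 h. All groups are the same single cell line, so the values describe that line. Resveratrol was added from DMSO and EGCG from water, and the sources used here do not say whether NT cells received DMSO, so resveratrol and its solvent cannot be told apart.

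p53 is held at a low level by MDM2, a ubiquitin ligase that marks it for degradation and that is itself made from a p53 target gene. When p53 is stabilized by DNA damage or another stress, it binds response elements near its targets and raises genes that stop the cell cycle, start apoptosis, repair DNA and adjust metabolism. Several p53 targets are also raised by other transcription factors.

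A p53 response element consists of 2 blocks of 10 bases, each with a core of 4 bases, and its consensus reads the same on both strands. To show what such letters look like at these genes, the 20 bases of the consensus without a spacer were searched from 3000 bases before to 3000 bases after the start of each gene's canonical transcript in GRCh38, with both cores kept intact. The best match with up to 4 mismatches follows for 5 genes, with the core bases in capitals. It lies at chr6:36676449-36676468 (plus strand) for CDKN1A, upstream of the start, at chr10:88991309-88991328 (plus strand) for FAS, in intron 1, at chr3:179070188-179070207 (minus strand) for ZMAT3, in intron 1, at chr19:47231320-47231339 (minus strand) for BBC3, upstream, and at chr2:24085165-24085184 (minus strand) for TP53I3, upstream.
CDKN1A: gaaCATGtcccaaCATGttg
FAS: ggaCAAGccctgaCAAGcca
ZMAT3: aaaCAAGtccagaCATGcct
BBC3: ctgCAAGtcctgaCTTGtcc
TP53I3: cagCTTGcccaccCATGctc
The ZMAT3 match had 0 mismatches, which 0.0799% of 20033 windows of this length also held. RRM2B had a match with 1 mismatch in intron 1, as good as in 0.499% of windows. The CDKN1A and FAS matches had 2 mismatches (2.86% of windows) and those of BBC3 and TP53I3 had 3 (16% of windows). MDM2, SESN1 and TP53INP1 had no match with up to 4 mismatches, which says only that these letters are not in the window searched.

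The libraries held 7034872 to 11735574 counts, and the biological coefficient of variation within groups, shared over all genes tested, was 5.32%. Replicates 1 to 3 of each group had 0.249% to 0.326% of their counts in mitochondrial transcripts and replicates 4 to 6 had 0.448% to 0.775%. The labels name no batch, and these 2 sets of libraries, with 3 of each group in each, are called batches only because of that split. The 8 squamous epithelial markers, among them KRT5 and KRT14, were all tested, with a summed level of 127700 to 168900 normalized counts per library. That sum was 156200 to 165200 in NT, 129000 to 136800 with resveratrol and 127700 to 139000 with the Combination. The markers went both ways: the keratins KRT5, KRT14, KRT6A and KRT17, which make up most of the sum, were called lower with both, while CDH1 and DSG3 were called higher with both (CDH1 had a mean of 3562 in NT, 4354 with resveratrol and 4800 with the Combination). The 4 leukocyte markers summed to 1.06 to 9.64 and none passed the filter. Of 5 fibroblast markers COL1A1 and COL1A2 passed, while COL3A1, DCN and LUM did not. The sum over the 5 was 1116 to 1349 in NT, 898 to 1114 with EGCG, 1312 to 1558 with resveratrol and 1525 to 1753 with the Combination. COL1A1 made up nearly all of it, with a mean of 1182 in NT beside 19.5 for COL1A2 and 5.00 for LUM. The part of these marker levels in the results was not tested. Of 3 endothelial markers 1 passed, with a sum of 5.64 to 19.9. Levels are the authors' normalized counts, which correct each library's raw counts by its size factor, and FPKM, which also divides by gene length, is used where genes are compared with each other. The labels do not say whether replicates are separate cultures, so the p-values measure only the spread between these libraries.

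**Figure D1:**
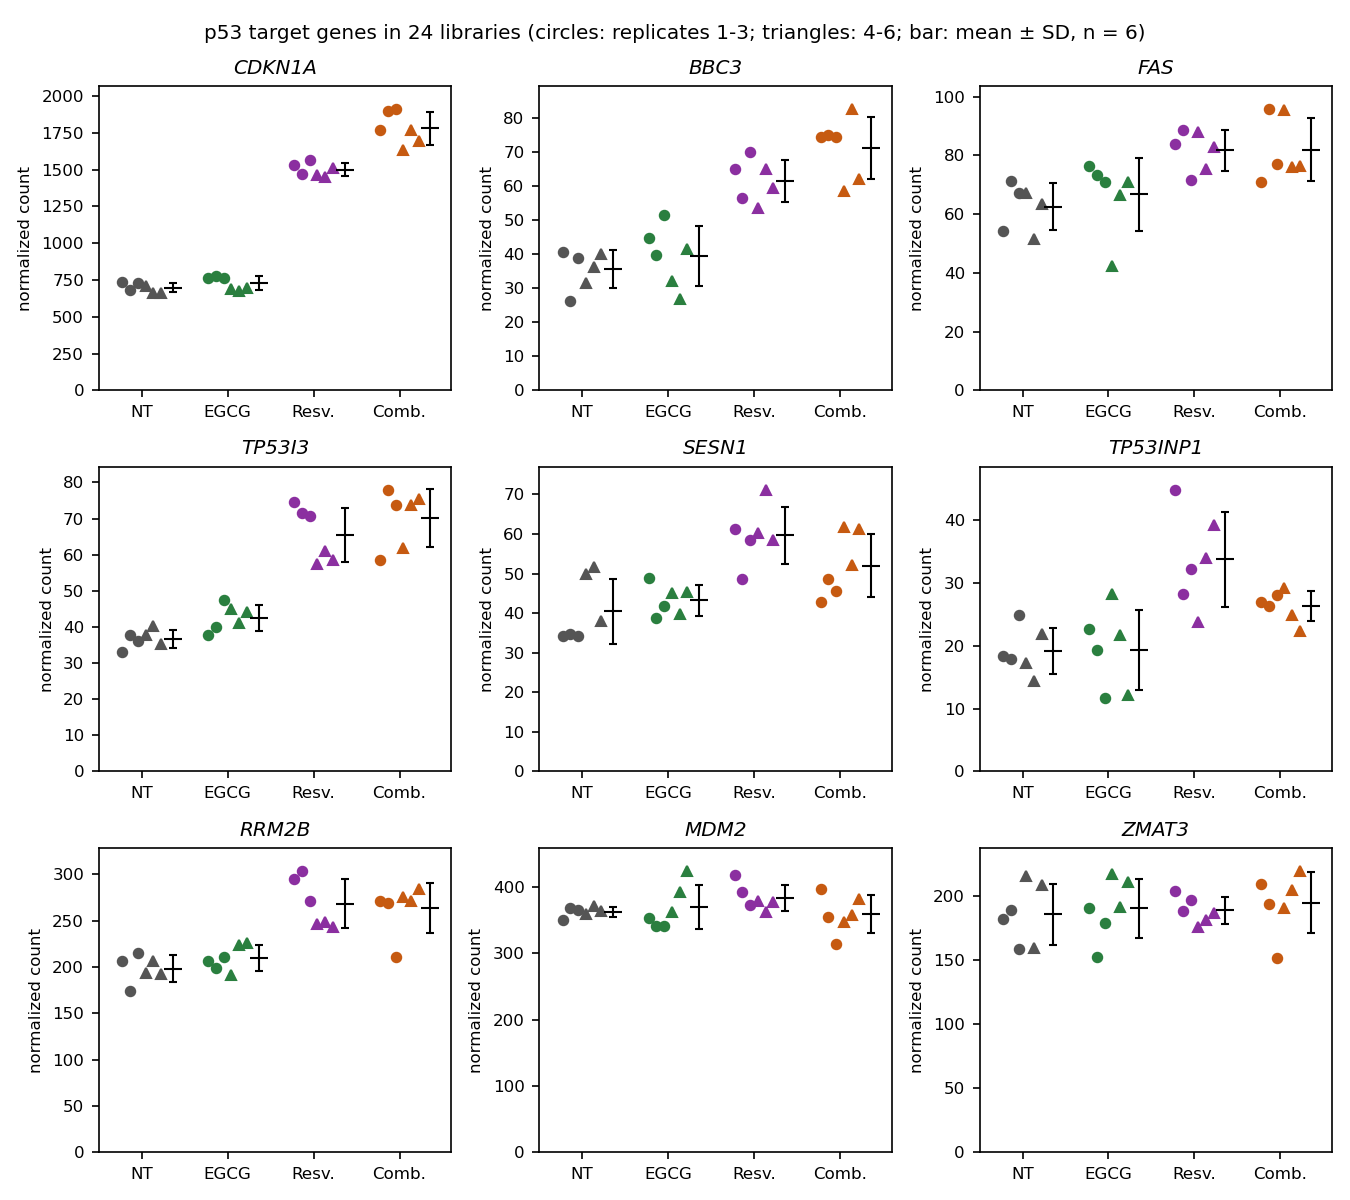
Normalized count (y axis, from 0) of the 9 p53 targets in each of the 24 libraries, by group (x axis). Circles are replicates 1 to 3, triangles replicates 4 to 6, and the bar beside each group is the mean ± SD of 6 libraries. CDKN1A runs from 664 to 737 in NT and from 1634 to 1915 in the Combination, and MDM2 and ZMAT3 overlap between all groups.

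In untreated cells CDKN1A, which encodes the cyclin-dependent kinase inhibitor p21, was the most abundant of the 9 per length, at 26.2 ± 1.19 FPKM (SD, n = 6). RRM2B, the p53-inducible small subunit of ribonucleotide reductase, followed at 4.09 ± 0.299 and MDM2 at 3.09 ± 0.0632 FPKM. These 3 genes did not overlap with their next neighbours in that order. ZMAT3, a zinc finger protein that binds RNA, was at 1.89 ± 0.244 FPKM and overlapped with TP53I3, a quinone oxidoreductase, at 1.82 ± 0.121. The death receptor FAS (1.29 FPKM) and the BH3-only protein gene BBC3 (1.28 FPKM), which encodes PUMA, overlapped with each other, and BBC3 also overlapped with SESN1, a sestrin that restrains mTORC1, at 0.904 ± 0.183 FPKM. TP53INP1, a nuclear protein with a part in autophagy, was the lowest at 0.389 ± 0.0750 FPKM, with 14 to 27 raw counts per library. With resveratrol and with the Combination CDKN1A stayed first and RRM2B second, while TP53I3 came to overlap with MDM2.

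With EGCG alone no change in these genes was established, and for some of them the intervals were wide. A gene was called here, or counted as a differentially expressed gene (DEG), when edgeR's quasi-likelihood test gave a Benjamini-Hochberg adjusted p under 0.1 over all genes tested and an unadjusted p under 0.05, the limits the study's methods give. By that rule 0 of the 9 genes were called with EGCG, where 1.76% of all genes tested were. At that share 0 of 9 is no result about these genes. None of the 9 had an unadjusted p under 0.05 in edgeR, against 1570 of all 15476 genes tested, and DESeq2's Wald test also called 0. All 9 log2 fold changes were above 0, from 0.01 for TP53INP1 to 0.21 for TP53I3, with a median of 0.09 beside a median of 0.00 over all genes.

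The 6 NT libraries held TP53I3 at 33.2 to 40.2 normalized counts with a median of 36.9, and the 6 EGCG libraries at 37.9 to 47.6 with a median of 42.6. All 6 EGCG libraries lay above the NT mean, but the groups overlapped. The log2 fold change was 0.21 ± 0.13 (SE), with an adjusted p of 0.604 by edgeR, and the exact permutation test of this gene alone gave p = 0.0108, two-sided and unadjusted for the 9 genes. For CDKN1A the 95% interval of the log2 fold change with EGCG was -0.03 to 0.15, and for MDM2 it was -0.08 to 0.13. These intervals bound the size of a change in those genes more closely than for TP53INP1, whose interval was -0.39 to 0.41. TP53I3 (-0.05 to 0.47) and BBC3 (-0.16 to 0.43) were also less closely bounded.

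Resveratrol raised 7 of the 9 genes: CDKN1A, BBC3, FAS, TP53I3, SESN1, RRM2B and TP53INP1. Among all genes tested 28.9% were higher DEGs and 56.9% were DEGs in either direction, so calls were common in this comparison. The median log2 fold change of the 9 genes was 0.56, beside 0.00 for all genes. MDM2 and ZMAT3 were not called. In 5 of the 9 genes every resveratrol library lay above every NT library, which held for 15.1% of all genes. Bulk counts cannot tell a rise in more of the cells from a larger rise in some of them.

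Of the cell cycle arm, CDKN1A was measured at 664 to 737 normalized counts in the NT libraries (median 694) and at 1452 to 1564 in the resveratrol libraries (median 1489). All 6 resveratrol libraries lay above all NT libraries. The log2 fold change was 1.11 ± 0.0418 (SE), with an adjusted p of 3.67e-22 by edgeR, and it was 1.09 within replicates 1 to 3 and 1.12 within replicates 4 to 6. It stood at rank 209 by size among the 4466 higher DEGs.

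Both apoptosis genes rose. BBC3 was at 26.3 to 40.5 normalized counts in NT (median 37.4) and 53.4 to 69.8 with resveratrol (median 62.2). The groups did not overlap, and the log2 fold change was 0.79 ± 0.13 (SE; edgeR adjusted p = 3.32e-06). FAS, the receptor through which FAS ligand starts caspase activation, went from 51.5 to 71.4 (median 65.5) in NT to 71.6 to 88.7 (median 83.5) with resveratrol. The lowest resveratrol library stood just above the highest NT library, and the log2 fold change was 0.39 ± 0.11 (SE; edgeR adjusted p = 0.00244).

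Among the genes for redox balance, metabolism and nucleotide supply, TP53I3 rose to 57.4 to 74.5 normalized counts (median 65.8), above every NT library, with a log2 fold change of 0.85 ± 0.10 (SE; edgeR adjusted p = 1.1e-08). RRM2B was at 174 to 215 in NT (median 199.998) and 243 to 304 with resveratrol (median 260), again without overlap. Its log2 fold change was 0.45 ± 0.0693 (SE; edgeR adjusted p = 1.34e-06), at 0.55 within replicates 1 to 3 and 0.32 within replicates 4 to 6. SESN1 was at 34.1 to 51.5 in NT (median 36.3) and 48.7 to 71.2 with resveratrol (median 59.4). Its groups overlapped, since 2 NT libraries of replicates 4 to 6 reached 49.99 and 51.5, and its log2 fold change was 0.56 ± 0.12 (SE; edgeR adjusted p = 0.000167). TP53INP1 was at 14.4 to 24.9 in NT (median 18.1) and 23.7 to 44.9 with resveratrol (median 33.2), with a log2 fold change of 0.80 ± 0.17 (SE; edgeR adjusted p = 0.000181).

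MDM2 was at 349 to 370 normalized counts in NT (median 364) and 362 to 417 with resveratrol (median 377). The groups overlapped, 5 of 6 resveratrol libraries lay above the NT mean, and the log2 fold change was 0.09 with a 95% interval of -0.02 to 0.19 (edgeR adjusted p = 0.173). That call depended on the processing: MDM2 was called at 0.17 when libraries were scaled by their size alone, at 0.11 when the genes tested were those reaching 10 counts in all libraries, and at 0.09 when only these 2 groups were fitted. The exact permutation test of this gene alone gave p = 0.013, two-sided. ZMAT3 was at 159 to 216 in NT (median 186) and 176 to 204 with resveratrol (median 188), with a log2 fold change of 0.03 and an interval of -0.14 to 0.20. Gene counts pool all transcripts, of which the annotation holds 36 for MDM2, so its p53-driven transcripts were not measured apart from the others.

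**Figure D2:**
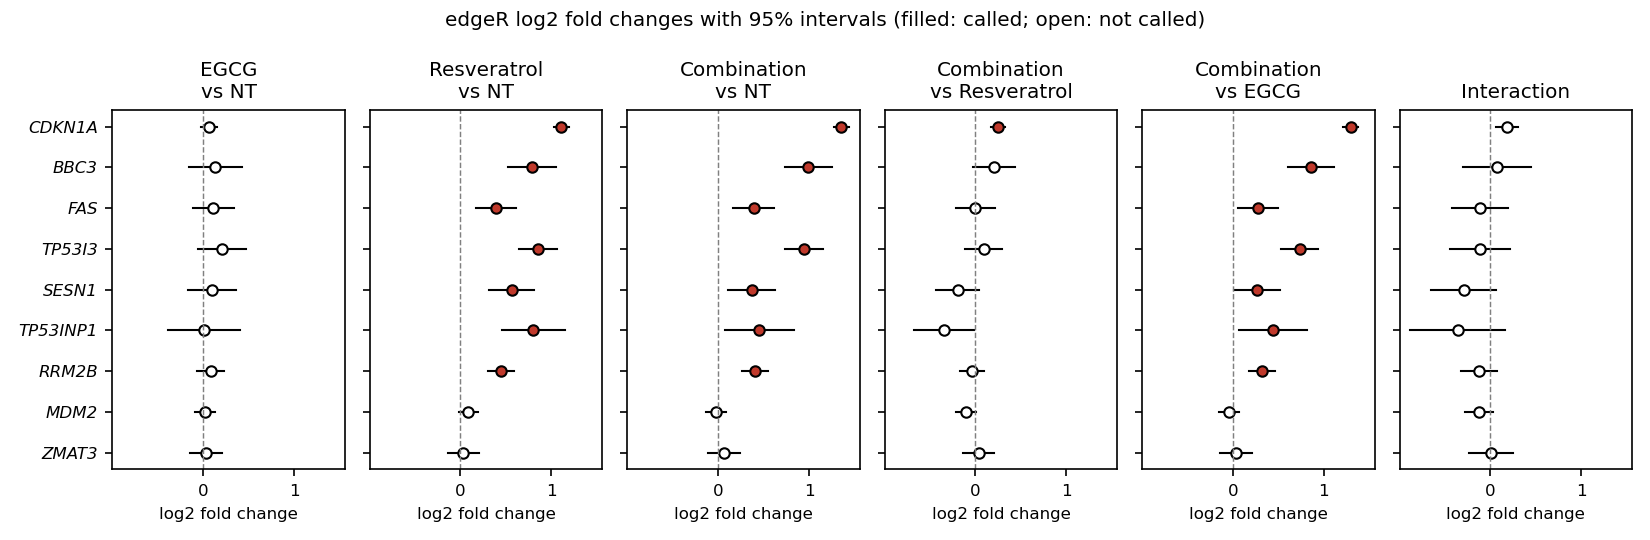
edgeR log2 fold change (x axis) of each of the 9 genes (y axis) in 5 comparisons and for the interaction of the agents; lines are 95% intervals, filled points were called and open points were not. With resveratrol and with the Combination 7 of the 9 points are filled, against NT, and MDM2 and ZMAT3 lie near 0 in all panels.

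The same 7 genes were called higher with the Combination against NT, where 29.9% of all genes were higher DEGs and 59.8% were DEGs. This comparison shares its NT libraries with the one for resveratrol, so the match of the lists is no second measurement. The median log2 fold change of the 9 genes was 0.41, beside 0.00 over all genes. In 3 genes, CDKN1A, BBC3 and TP53I3, every Combination library lay above every NT library, which held for 15.4% of all genes.

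CDKN1A was at 1634 to 1915 normalized counts with the Combination (median 1771), a log2 fold change of 1.36 ± 0.0417 (SE; edgeR adjusted p = 4.34e-25), or 2.56-fold. BBC3 was at 58.5 to 82.7 (median 74.5) with a log2 fold change of 0.99 ± 0.13 (SE; edgeR adjusted p = 2.74e-08). TP53I3 was at 58.6 to 78.0 (median 73.6) with a log2 fold change of 0.94 ± 0.10 (SE; edgeR adjusted p = 1.01e-09). These 3 genes had the largest changes of the 9, and each stood clear of NT in all 6 libraries.

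FAS, RRM2B, SESN1 and TP53INP1 rose by less and overlapped with NT. FAS was at 71.0 to 96.0 normalized counts (median 76.8; log2 fold change 0.39 ± 0.11 SE, edgeR adjusted p = 0.00263). RRM2B was at 210 to 284 (median 271; log2 fold change 0.41 ± 0.0706 SE, edgeR adjusted p = 7.07e-06), and replicate 3 was the lowest of its group. SESN1 was at 42.8 to 61.7 (median 50.3; log2 fold change 0.37 ± 0.13 SE, edgeR adjusted p = 0.0125). TP53INP1 was at 22.4 to 29.2 (median 26.7; log2 fold change 0.45 ± 0.19 SE, edgeR adjusted p = 0.0363). The last 2 genes lost their calls in single batches: SESN1 had an adjusted p of 0.103 by edgeR in replicates 4 to 6, and TP53INP1 had 0.195 in replicates 1 to 3 and 0.146 in replicates 4 to 6. In replicates 1 to 3 and 4 to 6 the log2 fold changes were 0.42 and 0.34 for SESN1, and 0.41 and 0.50 for TP53INP1. MDM2 was at 314 to 396 (median 356) and its log2 fold change was -0.02, with an interval of -0.13 to 0.09. ZMAT3 was at 152 to 220 (median 200), at 0.07 with an interval of -0.10 to 0.24.

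The Combination was compared with resveratrol alone to see what EGCG added, and 1 of the 9 genes was called. CDKN1A was higher with the Combination than with resveratrol alone, where 4.01% of all genes were higher DEGs and 7.86% were DEGs. All 6 Combination libraries (1634 to 1915) lay above all 6 resveratrol libraries (1452 to 1564), as in 1.83% of all genes. The log2 fold change was 0.25 ± 0.0392 (SE; edgeR adjusted p = 5.79e-05), at 0.29 within replicates 1 to 3 and 0.20 within replicates 4 to 6.

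The other 8 genes were not called in this comparison. BBC3 had a log2 fold change of 0.21 with an interval of -0.02 to 0.44 (edgeR adjusted p = 0.343). TP53INP1 went the other way, at -0.35 with an interval of -0.68 to -0.02, an unadjusted p of 0.0408 and an adjusted p of 0.25 by edgeR. All 6 Combination libraries of TP53INP1 lay below the resveratrol mean, and the ranges overlapped. SESN1 was at -0.19 (-0.43 to 0.04) and MDM2 at -0.10 (-0.21 to 0.00). FAS had a difference of 0.00 with an interval of -0.21 to 0.21.

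The interaction term asks whether the effect of both agents differs from the sum of the single effects on the log2 scale. It was called for 0 of the 9 genes by edgeR and by DESeq2, and for 0.265% of all genes. Of the 9, 1 had an unadjusted p under 0.05 by edgeR, as 1195 of all 15476 genes tested did, so this count is no result about the 9 as a set. That gene was CDKN1A, for which the single effects of 0.06 and 1.11 sum to 1.17 and the Combination gave 1.36. The interaction was 0.18 ± 0.0589 (SE; edgeR adjusted p = 0.319), at 0.18 and 0.19 within the 2 batches. It was called with the batch as a term (adjusted p = 0.0851) and with the replicate number as a block (adjusted p = 0.087), both by edgeR.

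Against EGCG alone, the Combination was higher in the same 7 genes, where 28.7% of all genes were higher DEGs and 57.8% were DEGs. The Combination libraries are those compared with NT, and EGCG alone had 0 of the 9 genes called, so this match is no second measurement. CDKN1A had a log2 fold change of 1.29, BBC3 of 0.86 and TP53I3 of 0.73, and these 3 stood clear of EGCG in every library, as 13.4% of all genes did. TP53INP1 (0.44), RRM2B (0.32), FAS (0.28) and SESN1 (0.27) overlapped. The SESN1 call was near the limit, with an adjusted p of 0.0687 by edgeR and 0.156 by DESeq2, and it was lost in replicates 1 to 3 (0.07) and on leaving out any of 6 libraries: EGCG replicates 2, 3 and 5 and Combination replicates 4, 5 and 6. FAS was not called in replicates 1 to 3 (0.14), and TP53INP1 was not called in replicates 4 to 6 (0.29) or without EGCG replicate 3 (0.33).

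Of 14 relatives and regulators of p53, 4 were higher and 3 lower with resveratrol, and 4 were higher and 4 lower with the Combination. These are 50% and 57.1% called in either direction, no higher than the 56.9% and 59.8% of all genes, so the values of single genes that follow are no result about the list. With libraries scaled by size alone these counts were 7 and 3, and 5 and 4. Of all 15476 genes tested, 6147 and 6041 were called higher under that scaling, beside 4466 and 4633 in the main fit. The median log2 fold change was 0.09 with resveratrol and -0.02 with the Combination. TP63, the squamous family member, was at 3506 normalized counts in NT and 3722 with the Combination (log2 fold change 0.09, called). TP73 was at 121 in NT and 84.7 with the Combination (-0.49, called), also lower than with resveratrol (-0.36, called). MDM4, the partner of MDM2, was not called in these comparisons (0.10 with resveratrol and -0.10 with the Combination). Of the other regulators, COP1, a ubiquitin ligase for p53, fell by 0.44 and by 0.48 on the log2 scale. USP7, which removes ubiquitin from MDM2 and p53, fell by 0.26 and by 0.30, and the checkpoint kinase CHEK1 fell by 0.33 with both treatments. CDKN2A, whose ARF product binds MDM2, rose by 0.32 and 0.33, and the damage kinase ATM by 0.27 and 0.19. With EGCG 0 of the 14 were called by edgeR and 0 by DESeq2, and 0 had an unadjusted p under 0.05 by edgeR. Of all 15476 genes tested, edgeR called 1.76% with EGCG, and 1570 had an unadjusted p under 0.05. At these shares 0 of 14 is no result about the list.

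**Figure D3:**
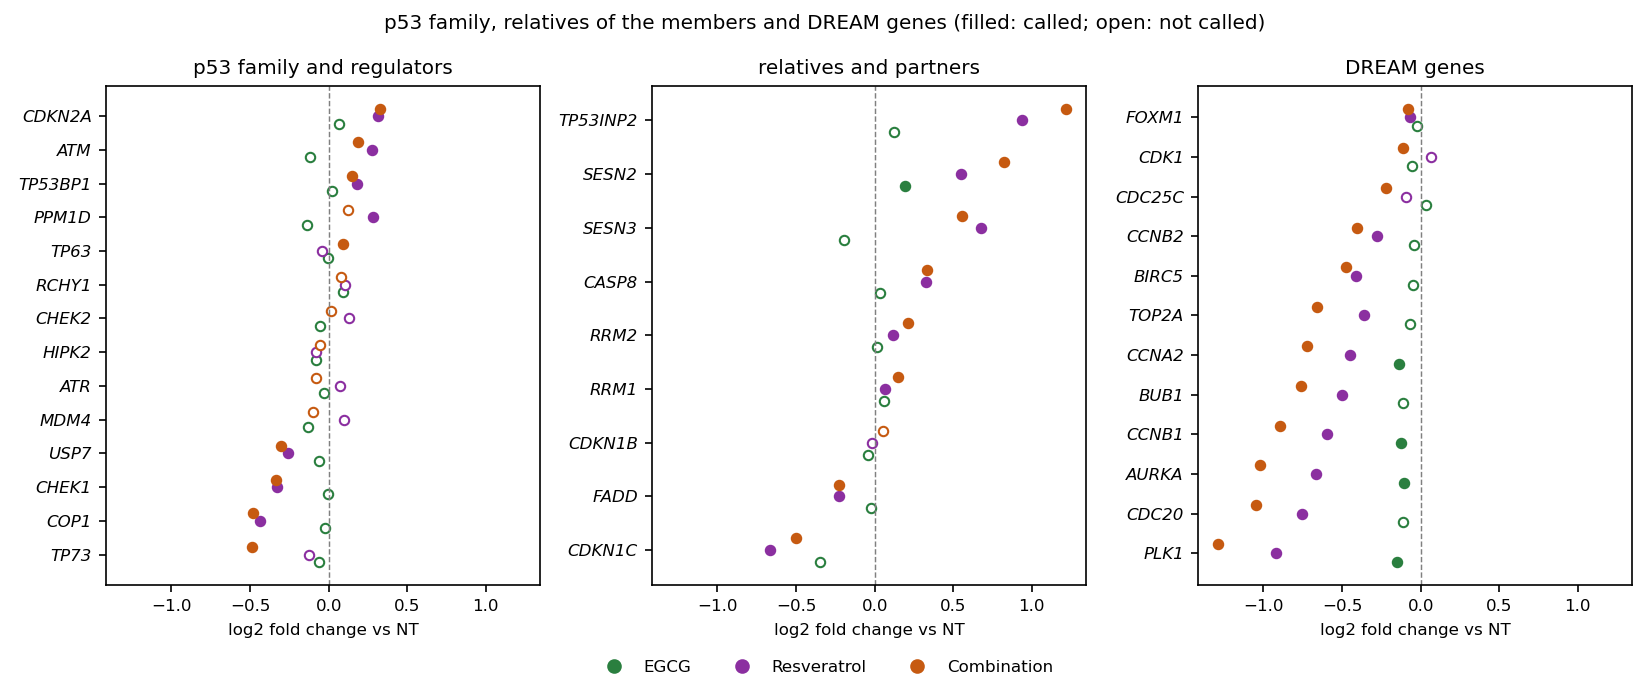
edgeR log2 fold change against NT (x axis) of the p53 family and regulators, of relatives and partners of the 9 genes, and of DREAM genes (y axis, 1 row per gene), by treatment; filled points were called and open points were not. All 12 DREAM genes lie below 0 with the Combination. Of the 14 relatives and regulators of p53 no EGCG point is filled, where 1.76% of all genes were called with EGCG.

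Other known p53 targets, 45 genes in 5 groups by role, moved in both directions. Of the 39 that were tested, 20 were higher and 9 lower with resveratrol, and 18 were higher and 7 lower with the Combination. Scaled by library size alone the splits were 23 and 4, and 24 and 5. That scaling also raised the higher calls among all 15476 genes tested, from 4466 to 6147 with resveratrol and from 4633 to 6041 with the Combination. In the main fit the background was 56.9% and 59.8% called in either direction, beside 74.4% and 64.1% of this list. The median log2 fold change was 0.16 with resveratrol and 0.08 with the Combination.

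Of the cell cycle arrest genes, BTG2, an antiproliferative cofactor, rose by 0.57 with resveratrol and 0.81 with the Combination, and GADD45A by 0.34 and 0.54. The kinase gene PLK2 fell by 0.34 and by 0.47. Of the apoptosis genes, PMAIP1, which encodes the BH3-only protein NOXA, rose by 0.59 and 0.72, and the TRAIL receptor gene TNFRSF10B by 0.35 and 0.52. BAX fell by 0.12 and by 0.17, calls that were lost with library size scaling, and APAF1, the apoptosome scaffold, fell by 0.25 and by 0.32. The exonuclease gene AEN fell by 0.42 and by 0.38. The 3 DNA repair genes POLH, XPC and DDB2 were all higher with both treatments, at 0.16 to 0.29 with resveratrol, where 28.9% and 29.9% of all genes were higher DEGs. With resveratrol 1 of these 3 was called within replicates 1 to 3 alone and 3 within replicates 4 to 6 alone. With the Combination 2 were called within replicates 1 to 3 and 1 within replicates 4 to 6. Of metabolism and autophagy, SESN2 rose by 0.55 and 0.82. It was the 1 gene of the 39 called with EGCG (0.19), beside 1.76% of all genes, and that call was lost within each batch alone. The largest changes of the 39 were in the group of other roles: GDF15, a stress cytokine, rose by 2.24 and 2.63, and the transcription factor ATF3 by 1.38 and 1.80. In the same group NINJ1 had mean normalized counts of 70.4 in NT, 157 with resveratrol and 163 with the Combination. SUSD6 had means of 173, 291 and 336. Of the 12 genes tested in this group, 8 were higher and 2 lower with resveratrol, and 6 higher and 2 lower with the Combination. These are 83.3% and 66.7% called, beside 56.9% and 59.8% of all genes.

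Of these 39 genes, 6 are also known targets of the stress factors ATF4 or CHOP: SESN2, ATF3, GDF15, PMAIP1, TNFRSF10B and GADD45A. All 6 were higher with resveratrol (median 0.57) and with the Combination (median 0.77). All except PMAIP1, 5 of 6, were higher with the Combination than with resveratrol, where 4.01% of all genes were higher DEGs. Of the other 33, which include NINJ1 and SUSD6, 14 were higher and 9 lower with resveratrol. With the Combination 12 were higher and 7 lower, and the medians were 0.07 and 0.05. The share of the 33 called in either direction was 69.7% and 57.6%, beside 56.9% and 59.8% of all genes, so with the Combination it was at the background. Of all genes 28.9% and 29.9% were higher DEGs, beside the 6 of 6. Against resveratrol, the Combination had 10 of the 39 higher and 3 lower, where 7.86% of all genes were called. Among the 33 it had 5 higher and 3 lower, or 24.2% called. These lists were chosen with results of these data known, and no test set them apart from other genes.

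**Figure D4:**
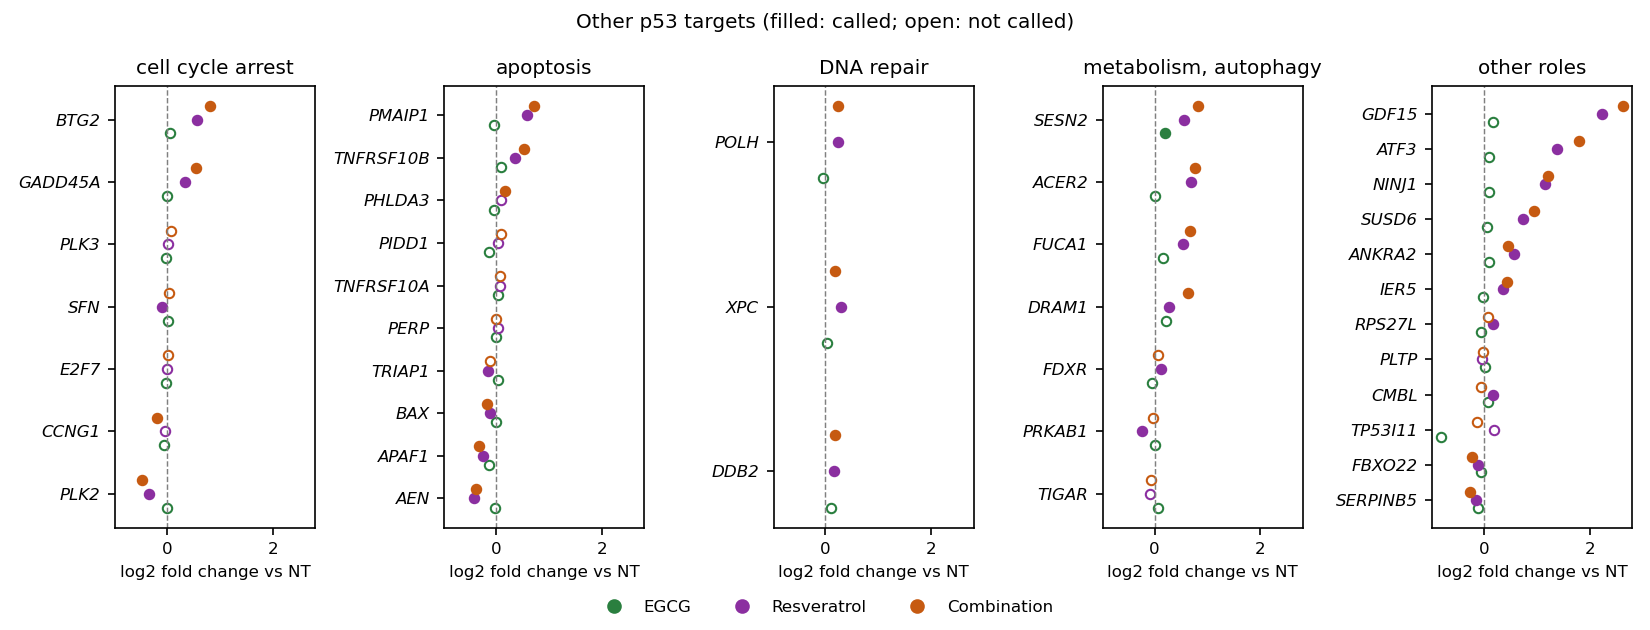
edgeR log2 fold change against NT (x axis) of the 39 other p53 targets that were tested (y axis, 1 row per gene) in 5 groups by role, by treatment; filled points were called and open points were not. GDF15 and ATF3 lie farthest right, and PLK2, AEN and APAF1 are among the genes on the left.

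Of 10 relatives and partners of the 9 genes, 9 were tested, and 6 were higher and 2 lower with resveratrol and with the Combination. Of all genes 28.9% were higher and 28% lower DEGs with resveratrol, and 29.9% were higher and 29.9% lower with the Combination. Under library size scaling the Combination gave 7 higher and 1 lower, where 6041 of all 15476 genes tested were called higher, beside 4633 in the main fit. The median log2 fold change of the 9 was 0.12 and 0.21. SESN3, another sestrin, rose by 0.68 with resveratrol and 0.55 with the Combination, and TP53INP2, the relative of TP53INP1, rose by 0.94 and 1.22. RRM2, the S-phase counterpart of RRM2B, rose by 0.12 and 0.21. CASP8, the caspase that FAS recruits, rose by 0.33 with both, while FADD, the adaptor between them, fell by 0.23 with both. CDKN1C, which encodes the inhibitor p57, was low, at 15.5 normalized counts in NT, and fell by 0.66 and by 0.50, the second call being lost with library size scaling. CDKN1B, the relative of CDKN1A that encodes p27, was not called (-0.02 and 0.05). FASLG, the ligand of FAS, did not pass the filter on low counts.

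Most of 12 listed cell cycle genes that the DREAM complex can repress downstream of p21 fell, and whether p21 had a part was not tested. Of these 12, 10 were lower with resveratrol (median log2 fold change -0.43) and 12 with the Combination (median -0.69). Of all genes 28% and 29.9% were lower DEGs. CDK1 was at 0.07 with resveratrol and was not called. With library size scaling 9 were lower in each, CDK1 was called higher with resveratrol (0.16), and FOXM1 turned to 0.02 and 0.01 without a call. The mitotic kinase PLK1 fell by 0.92 and by 1.29, CDC20 by 0.76 and by 1.05, and AURKA by 0.67 and by 1.02. With EGCG 4 of the 12 were called lower (PLK1, AURKA, CCNB1 and CCNA2, at -0.10 to -0.15), beside 0.859% of all genes, and 2 with library size scaling and 0 within either batch alone. The Combination was lower than resveratrol in 9 of the 12 (median -0.27), where 3.86% of all genes were lower.

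Across the 24 libraries the genes most like CDKN1A, by Pearson's r of log2 CPM among 11674 genes with a mean of at least 5 CPM, were ATF3 (r = 0.995), SQSTM1 (0.993) and PCK2 (0.993). For MDM2 they were VIRMA (0.852), SLC44A1 (0.822) and AP4E1 (0.787). The points share treatment, batch and depth, so these values are descriptions. With group means removed, the 36 pairs of the 9 genes had a median r of 0.0072, from -0.52 for MDM2 with CDKN1A to 0.626 for CDKN1A with BBC3, and 3 pairs were over 0.5. With the means of each batch within the groups removed, the median was 0.0146. The range was then -0.372 for MDM2 with CDKN1A to 0.642 for MDM2 with RRM2B, and CDKN1A with BBC3 was at 0.489.

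Some of the genes overlap with others, and how the counting treated such reads is not given in the sources used here. TP53INP1 overlaps with NDUFAF6 on the opposite strand, with means of 25.1 and 73.2 raw counts per library. FAS overlaps with STAMBPL1 on the same strand, with means of 74.6 and 102.5 raw counts, and with ACTA2 on the opposite one. MDM2 overlaps with CPM on the opposite strand, with a mean of 33.1 raw counts beside 373.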

How the data were processed

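RNA-seq of 686Tu cells was analysed in 24 libraries. The submitters' processing notes name bcl2fastq 2.17.1.14, Trimmomatic 0.36, FastQC 0.11.5, HISAT2 2.0.4, SAMtools 1.3.1, DESeq2 1.20.0 and GRCh38. The counting program, annotation release and strand setting are not given in the sources used here. The authors deposited raw counts per gene, the normalized counts (a signal that was checked to be the counts divided by DESeq2 size factors) and FPKM values, whose ratio to the normalized counts was constant per gene. Symbols came from the reference annotation for 60261 genes.

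1 model took the counts of all 4 groups into edgeR 4.0.16 under R 4.3.3 (filterByExpr, TMM, quasi-likelihood test), and standard errors were derived from its p-values. For single genes an exact permutation test, two-sided, compared mean log2 CPM (prior count 2), for which 0.00216 is the smallest p possible. The fits were tested on simulated data. Alternatives were DESeq2 1.42.0, other scalings, filters and limits, only the groups compared, a replicate block, a batch term, each batch alone and each library left out. Counting the other lists under these alternatives was added after seeing the data. The 9 genes, the lists and the naming rule (the 9 genes, up to 4 genes per list by p, members of lists whose counts are given, and for MDM2 and CDKN1A the 3 most correlated genes) were chosen with earlier results of these data known. A result that this rule also covers is not reported here. Figures were drawn with matplotlib.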

Additional observations from a re-analysis of the deposited data

Results flagged for a closer look

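In 36 groups of 6 libraries (9 genes in 4 groups), 2 groups had 1 library far from the others by Dixon's ratio, the gap to the nearest library over the range of the group that passed its 95% critical value. Chance gives such a ratio in about 1 of 20 groups.

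EGCG replicate 4 was the lowest of its group for FAS, at 42.4 normalized counts beside 66.6 for the nearest library, a ratio of 0.709. Without it the log2 fold change of FAS with EGCG was 0.20, and FAS was still not called.

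Combination replicate 3 was the lowest of its group for RRM2B, at 210.4 normalized counts beside 268.9 for the nearest library, a ratio of 0.791. Without it the log2 fold change of RRM2B with the Combination was 0.47 and still called, and against resveratrol it went from -0.04 to 0.02, called in neither case.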

How the results depend on the processing

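Of 54 log2 fold changes (9 genes in 6 comparisons), 22 were called. Their 506 values under the alternatives kept their direction, and 490 kept the call, while 16 lost it (7 of these among 264 values with 1 library left out). Of 835 values of the changes that were not called, 765 stayed so in the same direction, 5 became called and 65 turned their sign. The cause was not tested. Scaling by library size alone moved the median of all genes by 0.09 with resveratrol and 0.08 with the Combination. Genes with few counts, such as TP53INP1, had the widest intervals at this depth.

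Deviations from the group means correlated between same-numbered libraries with a median r of 0.0488 (-0.0111 to 0.131), and 2 of 36 pairs were over 0.1. The median r was 0.0276 for other numbers of the same batch and -0.0406 across batches. Of 24 libraries, 11 correlated best with their own number. Same-numbered libraries were thus slightly more alike than others, and whether the numbers pair the samples was not tested. With the replicate block, as with the batch term, 1 of the 9 genes (CDKN1A) was called for the interaction in place of 0, and the block gave 2 other p53 targets with EGCG in place of 1. In each batch alone 0 were called with EGCG, and 7 in place of 13 for Combination against resveratrol.

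Changes that were not called turned in replicates 1 to 3 alone, with EGCG, for MDM2 (-0.058), ZMAT3 (-0.0028) and TP53INP1 (-0.17), against resveratrol for FAS (-0.0062), TP53I3 (-0.035) and ZMAT3 (-0.10), against EGCG for MDM2 (0.034), and in the interaction for BBC3 (-0.13) and ZMAT3 (-0.10). In replicates 4 to 6 alone they turned with EGCG for BBC3 (-0.15) and SESN1 (-0.12), with resveratrol for ZMAT3 (-0.11), against resveratrol for RRM2B (0.17), and in the interaction for FAS (0.00023), TP53I3 (0.064), SESN1 (0.0022) and RRM2B (0.043). With library size alone they turned for MDM2 with the Combination (0.066) and against EGCG (0.033), for FAS against resveratrol (-0.0053) and for the ZMAT3 interaction (-0.010). With at least 10 counts, MDM2 with the Combination was 0.0087 and FAS against resveratrol -0.00013. With only the groups compared they were 0.0029 and -0.0017. With every gene, FAS against resveratrol was -2.5e-05 and the ZMAT3 interaction -0.00042, and that interaction was -0.0085 with the block and -0.0015 with the batch term.

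With 1 library left out, the changes that turned ranged, with EGCG, from -0.016 to 0.047 for MDM2, -0.011 to 0.085 for ZMAT3 and -0.090 to 0.12 for TP53INP1. With resveratrol ZMAT3 ranged from -0.013 to 0.078, and with the Combination MDM2 from -0.046 to 0.020. Against resveratrol the ranges were -0.049 to 0.036 for FAS, -0.0032 to 0.10 for ZMAT3 and -0.064 to 0.023 for RRM2B, and against EGCG -0.072 to 0.016 for MDM2 and -0.0045 to 0.10 for ZMAT3. In the interaction they were -0.043 to 0.17 for BBC3 and -0.050 to 0.072 for ZMAT3.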
